A study of Homo sapiens with 28 samples.

Results

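TMEFF2, KLHL1, JAKMIP1, SEMA6A, PKP1, ZNF385B, TLL1 and PDSS1 are 8 of the 25369 genes counted in LNCaP, a human cell line established from prostate cancer. They were picked for a rise, under tunicamycin, with both siRNAs against ATF4. Their levels followed 1 common outline. Tunicamycin lowered them, either ATF4 siRNA brought them back towards or above the solvent level, the PERK siRNAs raised 5 or 7 of them above tunicamycin alone, and the PERK inhibitor left them near the tunicamycin level. TMEFF2 averaged 103 and 152 CPM (read counts scaled to library size) with the ATF4 siRNAs, 80.2 and 92.9 with the PERK siRNAs, 20.1 with the inhibitor, 21.7 with tunicamycin alone and 167 in the solvent. Of the 8 genes, TMEFF2 rose the most with the PERK siRNAs. PKP1, which did not pass with either of them, averaged 4.42 and 5.86 CPM with the ATF4 siRNAs and 1.12 and 1.12 with the PERK siRNAs. It averaged 0.880 with the inhibitor, 1.07 with tunicamycin alone and 3.12 in the solvent.

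Tunicamycin at 2.5 µg/mL for 18 h was given to 6 groups of 4 libraries. Of these, TM siATF4-2 and TM siATF4-3 carried an siRNA against ATF4, and TM siPERK-1 and TM siPERK-3 an siRNA against PERK. TM PERKi siCtrl carried the control siRNA and the PERK inhibitor GSK2606414 at 100 nM, and TM siCtrl the control siRNA alone. The last group, DMSO siCtrl, carried the control siRNA and received the solvent. Treatment began 2 days after transfection, and per the series' design text the 4 libraries of a group came from separate experiments, all in 1 cell line.

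Tunicamycin blocks N-linked glycosylation, so that unfolded proteins build up in the endoplasmic reticulum. PERK, encoded by EIF2AK3, is a kinase that senses this stress and phosphorylates the translation factor eIF2α. Protein synthesis then slows in general, while the mRNA of the transcription factor ATF4 is translated more, and ATF4 raises genes of amino acid supply and of the stress response. The 8 genes are not a pathway. TMEFF2, SEMA6A and TLL1 encode membrane or secreted proteins, PKP1 a desmosome protein, KLHL1 and JAKMIP1 proteins that bind the cytoskeleton, ZNF385B a zinc finger protein, and PDSS1 an enzyme of coenzyme Q synthesis. TMEFF2 is known for its expression in prostate and brain and for its regulation by androgen.

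Of all genes, 3598 were called higher with both ATF4 siRNAs, and 2698 of these had a standard symbol, groups that did not overlap and 1 or more as mean log2 CPM. Ranked by the smaller of their log2 changes, the 8 genes held places 2 to 9. BMX, named here after its values were seen, held place 1 with a smaller log2 change of 2.54 and a mean log2 CPM of 1.02, and is not among the 8. The last gene inside was PDSS1 with 1.73, and the next outside were GPR158 with 1.70 and SNHG15 with 1.68. The values with the ATF4 siRNAs against TM siCtrl therefore chose the genes and are given as a description. The TM siCtrl libraries entered that choice, so comparisons against them, or of them with DMSO siCtrl, are not independent of it. Comparisons among the PERK groups and of these with DMSO siCtrl use libraries that entered the choice only through steps over all 28 libraries. These steps were the mean level, the scaling, the filter on low counts and the shared estimate of the spread.

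The region upstream of KLHL1 is shown because it holds the single match, among the 8 genes, to the core of the C/EBP-ATF response element, a sequence that ATF4 binds together with C/EBP proteins. Beside it stands the region of TMEFF2, which changed the most with tunicamycin. Both are the 250 bases before the gene start in RefSeq (GRCh38.p14), written 5′ to 3′ on the gene's strand, with the match in capitals. KLHL1 lies at chr13:70108453-70108702, minus strand, and TMEFF2 at chr2:192194934-192195183, minus strand.
KLHL1: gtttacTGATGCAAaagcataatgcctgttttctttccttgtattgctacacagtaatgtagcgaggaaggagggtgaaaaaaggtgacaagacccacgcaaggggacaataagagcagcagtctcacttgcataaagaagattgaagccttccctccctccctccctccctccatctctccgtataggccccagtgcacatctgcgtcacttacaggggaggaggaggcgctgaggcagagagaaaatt
TMEFF2: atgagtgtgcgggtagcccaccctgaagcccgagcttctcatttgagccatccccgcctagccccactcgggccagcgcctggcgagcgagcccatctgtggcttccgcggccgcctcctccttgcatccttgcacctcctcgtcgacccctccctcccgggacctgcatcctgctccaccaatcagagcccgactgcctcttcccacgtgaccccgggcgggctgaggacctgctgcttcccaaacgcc
Windows of 250 bases before to 50 after a start were searched on both strands, and 7 of the 8 genes had 11 such windows. SEMA6A had no entry. TGATGNAA matched 1 of the 11 windows, 244 bases before the start of KLHL1 and in the orientation of the gene, against 1270 of 35116 windows (3.62%). The cyclic AMP response element, TGACGTCA, matched 0 of the 11 windows and 1.85% of all windows. The androgen response element matched 0 of the 11 windows and 0.00285% of all windows. A match describes letters and is no evidence of binding, and the absence of one concerns these windows alone.

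Library totals were 10794637 to 17253801 counts, and all 8 genes were among the 14314 genes with enough counts to be tested. ATF4 averaged 237 ± 82.4 and 114 ± 19.0 CPM in TM siATF4-2 and TM siATF4-3, against 1511 ± 37.4 CPM in TM siCtrl (SD, n = 4 each). EIF2AK3 averaged 24.6 ± 3.996 and 21.5 ± 2.14 CPM in TM siPERK-1 and TM siPERK-3, against 89.2 ± 6.51 CPM in TM siCtrl. Both targeted genes were thus lower with their own siRNAs. Summed over 10 prostate luminal markers, the ATF4 siRNA libraries held 4124 to 4836 CPM, the PERK siRNA libraries 3467 to 4031 CPM, TM PERKi siCtrl 2855 to 3222 CPM, TM siCtrl 3582 to 3967 CPM and DMSO siCtrl 6502 to 7637 CPM. This sum was, like the 8 genes, higher with the ATF4 siRNAs than in TM siCtrl and lower in TM siCtrl than in DMSO siCtrl. Its 10 markers were divided, with 3 called higher and 7 lower with tunicamycin, where 34.3% and 34.7% of all genes were. KLK3 fell from a mean of 2636 to 431 CPM, while KRT8 rose from 405 to 862 CPM. Against TM siCtrl, 6 were higher and 1 lower in TM siATF4-2, and 8 higher and 1 lower in TM siATF4-3. Of all genes, 28.4% were called higher and 27.2% lower in TM siATF4-2, and 31.2% higher and 30.7% lower in TM siATF4-3. The part of these markers in the levels of the 8 genes was not tested. The sum of 4 basal epithelial markers was 0 to 1.49 CPM in the 28 libraries, with TP63 at 0 counts in each. In bulk samples such as these, fewer cells with a transcript and less transcript per cell cannot be told apart.

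With the ATF4 siRNAs, the log2 changes of the 8 genes against TM siCtrl ran between 1.73 and 2.25 for TM siATF4-2 and between 1.98 and 2.82 for TM siATF4-3. Of all genes tested, 28.4% were called higher in TM siATF4-2 and 31.2% in TM siATF4-3 by edgeR's quasi-likelihood test at an adjusted p under 0.05, the rule for a call throughout. Every library of either siRNA lay above every TM siCtrl library for each of the 8, which the choice of the genes fixed; over all genes this held for 23.9% with TM siATF4-2 and 27.6% with TM siATF4-3.

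**Figure D1:**
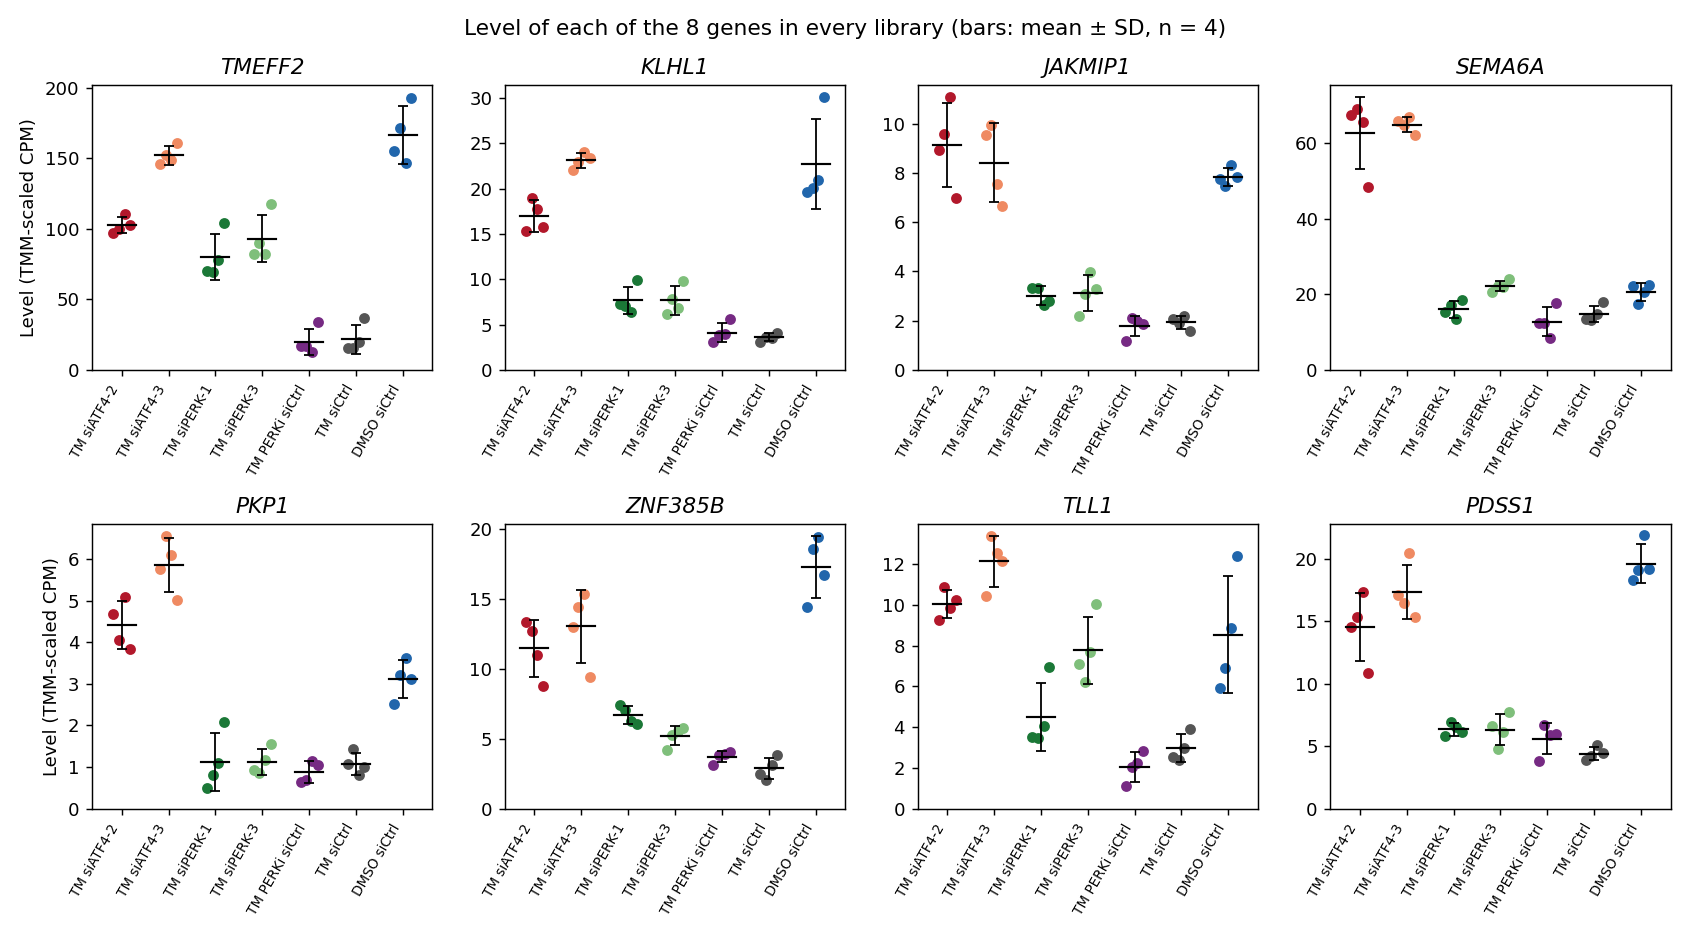
Level of each of the 8 genes in all 28 libraries, in CPM scaled by the TMM method on linear axes that start at 0; points are libraries, horizontal lines means and error bars SD (n = 4 a group). The ATF4 siRNA groups lie above TM siCtrl in each panel, and the inhibitor group overlaps TM siCtrl in each panel.

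Against DMSO siCtrl, whose libraries entered the choice only through the steps over all libraries, the 2 ATF4 siRNA groups are given as a description. They rest on libraries whose changes chose the genes. SEMA6A stood far above the solvent level, at 304% and 315% of its mean in TM siATF4-2 and TM siATF4-3, and PKP1 stood at 142% and 188%. JAKMIP1 stood at 117% and 107%, TLL1 at 118% and 142%. Below or near the solvent level were KLHL1 at 74.7% and 102%, PDSS1 at 74.1% and 88.5%, TMEFF2 at 61.6% and 91.3%, and ZNF385B at 66.3% and 75.4%.

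**Figure D2:**
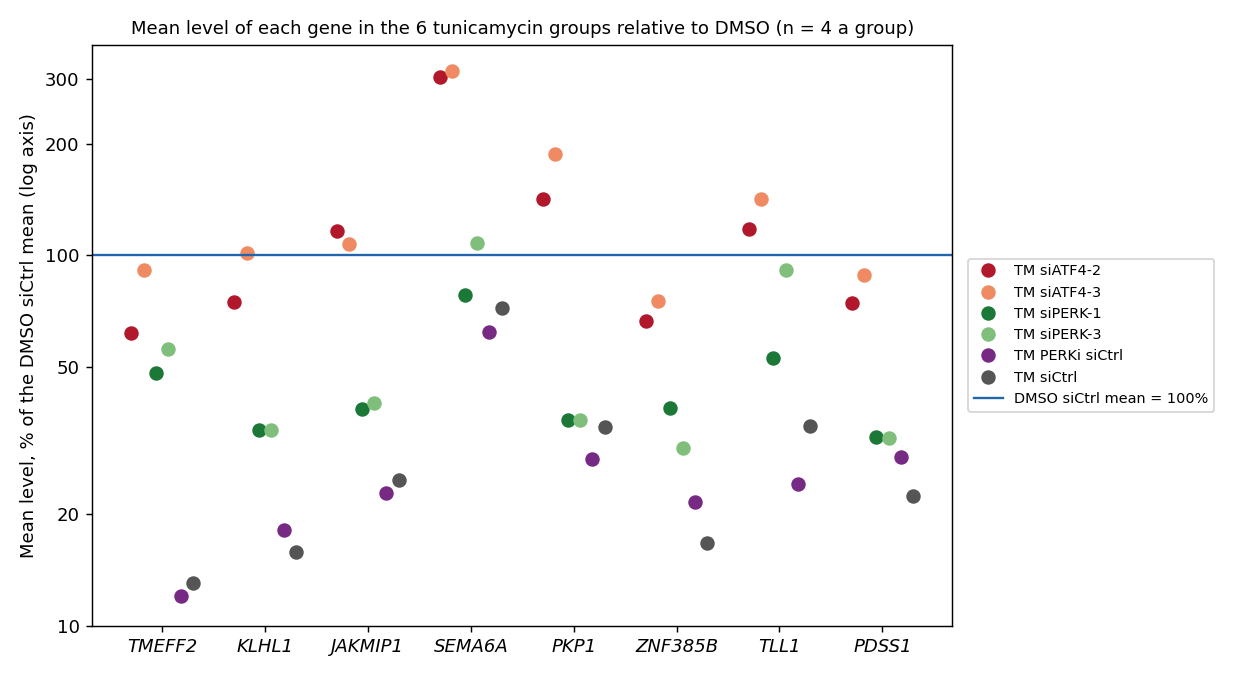
Mean level of each gene in the 6 tunicamycin groups as a percentage of its DMSO siCtrl mean, on a log axis (points: means of 4 libraries; line: the DMSO siCtrl mean). SEMA6A and PKP1 lie above the line with both ATF4 siRNAs, and TMEFF2 and ZNF385B below it.

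Tunicamycin alone lowered all 8 genes relative to the solvent. In TM siCtrl against DMSO siCtrl, 8 of 8 were called lower, where 34.7% of all genes were, and their median log2 change was -2.09, against 0.01 over all genes. TMEFF2 fell the most, by 2.95 on the log2 scale, and SEMA6A the least, by 0.48. For 7 of the 8, every TM siCtrl library lay below every DMSO siCtrl library, which held for 30.6% of all genes; SEMA6A was the exception. The same 4 TM siCtrl libraries entered the choice of the genes.

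The other tunicamycin groups were set against the same 4 DMSO siCtrl libraries, so these comparisons share their controls with the one above. In TM PERKi siCtrl against DMSO siCtrl, 8 of 8 were called lower, against 37.9% of all genes, with log2 changes from -3.05 (TMEFF2) to -0.70 (SEMA6A) and a median of -2.07. In TM siPERK-1 against DMSO siCtrl, 8 of 8 were called lower, against 32.3% of all genes, with a median of -1.36. In TM siPERK-3 against DMSO siCtrl, 6 of 8 were called lower, against 31.5% of all genes, with a median of -1.39. TLL1 and SEMA6A did not pass there, with log2 changes of -0.14 ± 0.21 and 0.11 ± 0.14 (adjusted p = 0.586 and 0.544).

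The PERK siRNAs raised most of the genes above tunicamycin alone. In TM siPERK-1 against TM siCtrl, 5 of 8 were called higher, where 13.1% of all genes were, with a median log2 change of 0.62 over the 8. In TM siPERK-3, 7 of 8 were called higher, where again 13.1% of all genes were, with a median of 0.78. TMEFF2 rose the most with both, with log2 changes of 1.89 ± 0.24 in TM siPERK-1 and 2.11 ± 0.24 in TM siPERK-3. PKP1 was called with neither. Both comparisons, like that of the inhibitor with TM siCtrl below, use the TM siCtrl libraries that entered the choice of the genes.

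The PERK inhibitor did not move the 8 genes past the threshold. In TM PERKi siCtrl against TM siCtrl, 0 of 8 were called by edgeR, where 35.7% of all genes were, and 1 of 8 had an unadjusted p under 0.05. DESeq2 and limma-voom also called 0, and a fit with the replicate number as a block called 1, PDSS1 (0.36, adjusted p = 0.0480). The log2 changes ran between -0.48 (TLL1) and 0.39 (ZNF385B), with a median of -0.10, and PDSS1 came closest to a call with 0.37 ± 0.16 (adjusted p = 0.0754). The 95% interval of the log2 change was -0.68 to 0.49 for TMEFF2 and -1.14 to 0.17 for TLL1. Leaving out TM siCtrl replicate 4, TM PERKi siCtrl replicate 1 or TM PERKi siCtrl replicate 4 gave 1 call each, of ZNF385B (0.56), PDSS1 (0.50) and SEMA6A (-0.43).

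Inhibitor and siRNAs against the same kinase were compared directly, a comparison added after the data were seen. In TM PERKi siCtrl against TM siPERK-1, 5 of 8 were called lower, where 24.1% of all genes were: TMEFF2 (-1.99), TLL1 (-1.08), KLHL1 (-0.87), ZNF385B (-0.84) and JAKMIP1 (-0.74). In TM PERKi siCtrl against TM siPERK-3, 6 of 8 were called lower, where 23.6% of all genes were: TMEFF2 (-2.21), TLL1 (-1.89), KLHL1 (-0.88), SEMA6A (-0.80), JAKMIP1 (-0.79) and ZNF385B (-0.47). ZNF385B was the weakest of these (adjusted p = 0.0369) and was not called by limma-voom (adjusted p = 0.0735). Leaving out TM PERKi siCtrl replicate 1, 2 or 3, or TM siPERK-3 replicate 2, 3 or 4, also ended its call (adjusted p = 0.0533 to 0.104). Leaving out TM PERKi siCtrl replicate 4 added SEMA6A to the calls against TM siPERK-1 (-0.55, adjusted p = 0.00396).

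**Figure D3:**
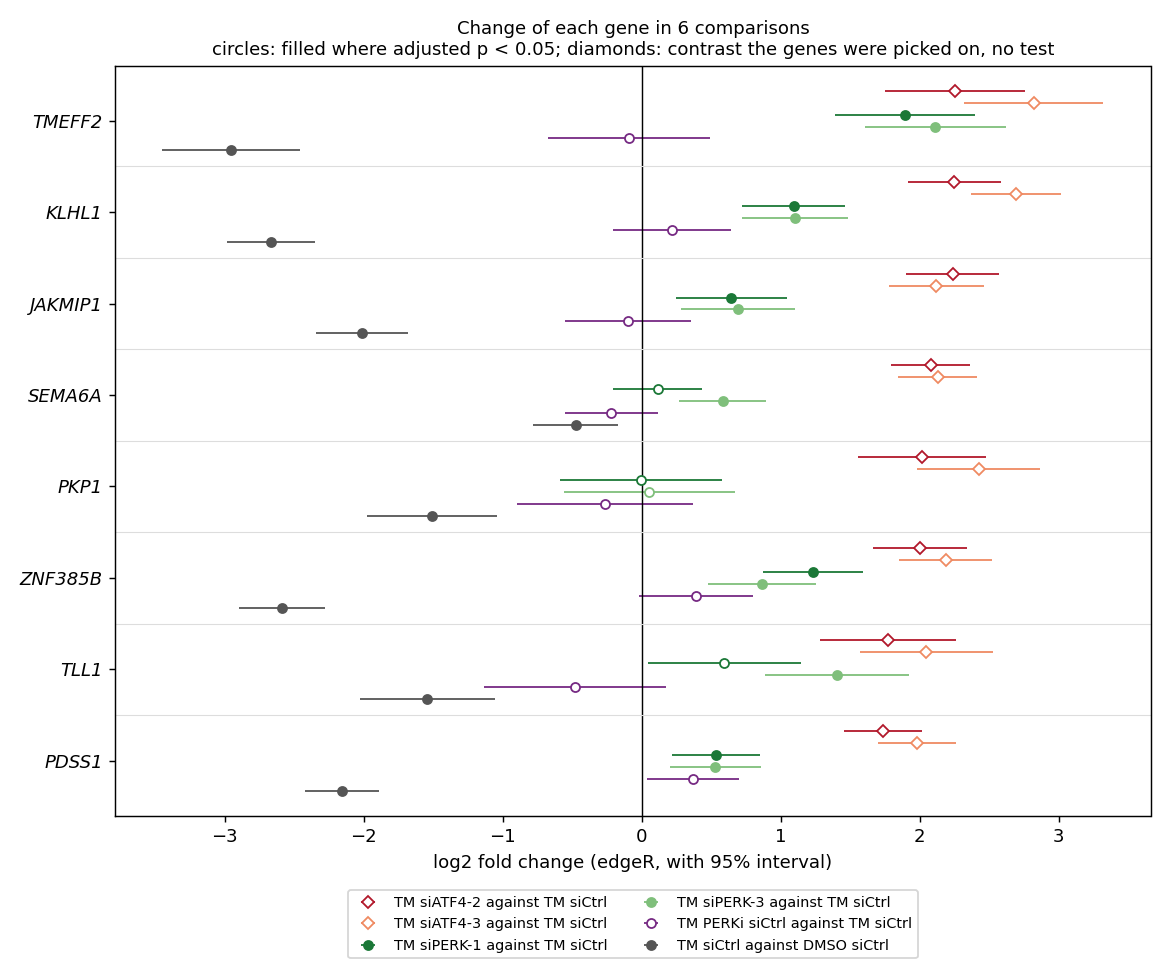
Log2 fold change of each gene with its 95% interval from the edgeR fit in 6 comparisons, each named in the legend with its control. Filled circles passed an adjusted p under 0.05, open circles did not, and open diamonds mark the contrasts on which the genes were picked; the inhibitor circles are open for all 8 genes.

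SEMA6A encodes a transmembrane semaphorin that binds plexin-A receptors and guides axons and cell migration. It had 67.5, 69.0, 65.6 and 48.4 CPM in TM siATF4-2 and 65.8, 64.8, 66.9 and 62.2 CPM in TM siATF4-3, against 13.6, 13.3, 14.9 and 17.9 CPM in TM siCtrl and 22.2, 17.4, 20.6 and 22.4 CPM in DMSO siCtrl. All 8 ATF4 siRNA libraries lay above all solvent libraries, while TM siCtrl and DMSO siCtrl overlapped by TM siCtrl replicate 4. SEMA6A had 15.3, 17.3, 13.4 and 18.5 CPM in TM siPERK-1, 20.6, 22.3, 21.9 and 24.1 CPM in TM siPERK-3 and 12.4, 12.5, 8.57 and 17.7 CPM in TM PERKi siCtrl. The TM siPERK-3 libraries lay above all TM siCtrl libraries, with a log2 change of 0.58 ± 0.15 (adjusted p = 0.0054), and the TM siPERK-1 libraries overlapped them (0.11 ± 0.15, adjusted p = 0.642). The lower level in TM siPERK-1 than in DMSO siCtrl (-0.36 ± 0.15, adjusted p = 0.0344) was lost without DMSO siCtrl replicate 1, 3 or 4 or TM siPERK-1 replicate 1 or 3 (adjusted p = 0.0543 to 0.116) and without the filter on low counts (0.0620). The gene lies at 5:115779251-115910551 (hg19, as for all genes that follow), minus strand, and 294 bases of its exons (4.29%) overlap CTB-118N6.3 on the other strand. That gene averaged 1.07 ± 0.340 CPM in TM siATF4-2 and 0.98 ± 0.193 CPM in TM siATF4-3, against 0.468 ± 0.301 CPM in TM siCtrl, and its part in the counts of SEMA6A was not tested.

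TLL1, a secreted metalloprotease of the BMP1 and tolloid family that cleaves chordin and procollagens, lies at 4:166794410-167025609, plus strand. Its level was 9.25, 10.9, 9.82 and 10.2 CPM in TM siATF4-2 and 10.45, 13.4, 12.6 and 12.1 CPM in TM siATF4-3, against 2.56, 2.38, 2.98 and 3.92 CPM in TM siCtrl and 5.93, 6.92, 8.88 and 12.4 CPM in DMSO siCtrl. The solvent libraries were widely spread and overlapped both ATF4 siRNA groups. With the PERK siRNAs it had 3.51, 3.48, 4.08 and 6.95 CPM in TM siPERK-1 and 7.11, 6.22, 7.71 and 10.05 CPM in TM siPERK-3, and with the inhibitor 1.097, 2.04, 2.24 and 2.84 CPM. TM siPERK-3 lay wholly above TM siCtrl (1.40 ± 0.25, adjusted p = 0.000117) and TM siPERK-1 overlapped it (0.59 ± 0.27, adjusted p = 0.105). With the replicate number as a block, the TM siPERK-1 change became a call (0.59, adjusted p = 0.00841).

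TLL1 was also the 1 gene of the 8 called between the PERK siRNAs, where 4.73% of all genes were called in either direction. It was lower in TM siPERK-1 than in TM siPERK-3, with a log2 change of -0.81 ± 0.24 (adjusted p = 0.0472). This call was lost without TM siPERK-1 replicate 1, 2 or 3 or TM siPERK-3 replicate 1, 3 or 4 (adjusted p = 0.0820 to 0.169), with upper-quartile scaling (0.0503) and without the filter (0.0982). SEMA6A was next (-0.47, adjusted p = 0.0825), and DESeq2 called it (0.0441).

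TMEFF2, a transmembrane protein with EGF-like and follistatin domains, was the most abundant of the 8 per length, at 92.1 CPM per kb of exon in DMSO siCtrl. Its gene lies at 2:192814747-193059644, minus strand. It had 97.3, 99.8, 111 and 102 CPM in TM siATF4-2 and 146, 152, 149 and 161 CPM in TM siATF4-3, against 15.2, 15.3, 19.7 and 36.5 CPM in TM siCtrl and 155, 172, 147 and 193 CPM in DMSO siCtrl. TM siATF4-3 overlapped the solvent libraries and TM siATF4-2 lay below them. TMEFF2 had 69.8, 69.4, 77.8 and 104 CPM in TM siPERK-1, 81.9, 89.9, 82.4 and 117 CPM in TM siPERK-3 and 16.8, 17.0, 12.9 and 33.7 CPM in TM PERKi siCtrl. Both PERK siRNA groups lay wholly above TM siCtrl, and both overlapped TM siATF4-2. The adjusted p against TM siCtrl was 4.36e-06 for TM siPERK-1 and 8.85e-07 for TM siPERK-3. Replicate 4 was the highest library of TM siPERK-1, TM siPERK-3, TM PERKi siCtrl, TM siCtrl and DMSO siCtrl.

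PKP1 encodes plakophilin 1, a desmosomal plaque protein of stratified epithelia, and lies at 1:201252580-201302121, plus strand. It was the least abundant of the 8 per length, at 0.573 CPM per kb of exon in DMSO siCtrl. It had 4.67, 4.06, 5.10 and 3.84 CPM in TM siATF4-2 and 5.77, 6.54, 6.10 and 5.02 CPM in TM siATF4-3, against 1.07, 1.43, 0.799 and 0.996 CPM in TM siCtrl and 2.52, 3.22, 3.61 and 3.12 CPM in DMSO siCtrl. Both ATF4 siRNA groups lay above the solvent libraries, and TM siCtrl below them. The level was 0.492, 0.819, 1.09 and 2.09 CPM in TM siPERK-1, 0.931, 0.852, 1.16 and 1.55 CPM in TM siPERK-3 and 0.640, 0.680, 1.16 and 1.05 CPM in TM PERKi siCtrl. These groups all overlapped TM siCtrl, with log2 changes of -0.00 ± 0.29 in TM siPERK-1 (95% interval -0.59 to 0.58) and 0.05 ± 0.30 in TM siPERK-3 (95% interval -0.56 to 0.67).

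KLHL1, a kelch-like actin-binding protein known from brain, lies at 13:70274725-70682625, minus strand. It had 15.3, 19.0, 17.8 and 15.8 CPM in TM siATF4-2 and 22.1, 23.0, 24.0 and 23.3 CPM in TM siATF4-3, against 3.03, 3.63, 3.56 and 4.12 CPM in TM siCtrl and 19.6, 20.1, 21.0 and 30.1 CPM in DMSO siCtrl. TM siATF4-3 lay within the solvent range only through DMSO siCtrl replicate 4, and above the other solvent libraries. TM siATF4-2 lay just below the solvent range. KLHL1 had 7.32, 7.03, 6.41 and 9.89 CPM in TM siPERK-1, 6.18, 7.84, 6.88 and 9.80 CPM in TM siPERK-3 and 3.11, 3.82, 3.95 and 5.60 CPM in TM PERKi siCtrl. Both PERK siRNA groups lay wholly above TM siCtrl and wholly below the ATF4 siRNA groups, with log2 changes against TM siCtrl of 1.09 ± 0.18 and 1.1 ± 0.19 (adjusted p = 2.78e-05 and 3.17e-05). Of its exon bases, 529 (12.7%) overlap ATXN8OS on the other strand, which had 0 counts in every library of the 4 siRNA groups against PERK or ATF4.

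JAKMIP1, which binds microtubules and Janus kinases and is known from neurons and lymphocytes, lies at 4:6027926-6202318, minus strand. It had 8.92, 9.56, 11.1 and 6.97 CPM in TM siATF4-2 and 9.55, 9.95, 7.53 and 6.64 CPM in TM siATF4-3, against 2.08, 1.90, 2.18 and 1.59 CPM in TM siCtrl and 7.74, 7.46, 8.32 and 7.82 CPM in DMSO siCtrl. Both ATF4 siRNA groups spread around the tight solvent values. JAKMIP1 had 3.32, 3.35, 2.62 and 2.78 CPM in TM siPERK-1, 2.20, 3.07, 3.98 and 3.27 CPM in TM siPERK-3 and 1.19, 2.12, 1.97 and 1.87 CPM in TM PERKi siCtrl. The TM siPERK-1 libraries lay above TM siCtrl (0.65 ± 0.20, adjusted p = 0.0125). TM siPERK-3 also passed (0.69 ± 0.20, adjusted p = 0.00886), but not without its replicate 3 (adjusted p = 0.0611).

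ZNF385B, a zinc finger protein, lies at 2:180306711-180726232, minus strand. It had 13.3, 12.7, 11 and 8.81 CPM in TM siATF4-2 and 12.97, 14.4, 15.3 and 9.39 CPM in TM siATF4-3, against 2.50, 2.08, 3.12 and 3.85 CPM in TM siCtrl and 14.4, 18.6, 19.5 and 16.7 CPM in DMSO siCtrl. TM siATF4-2 lay wholly below the solvent libraries, and TM siATF4-3 overlapped them. ZNF385B had 7.44, 7.03, 6.27 and 6.03 CPM in TM siPERK-1, 4.23, 5.28, 5.55 and 5.80 CPM in TM siPERK-3 and 3.11, 3.82, 3.95 and 4.03 CPM in TM PERKi siCtrl. Both PERK siRNA groups lay above TM siCtrl, with log2 changes of 1.23 ± 0.18 and 0.87 ± 0.19 (adjusted p = 1.54e-06 and 0.000656).

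PDSS1, a subunit of the enzyme that builds the isoprenoid side chain of coenzyme Q, lies at 10:26986595-27035726, plus strand. It had 14.6, 15.4, 17.4 and 10.9 CPM in TM siATF4-2 and 17.1, 16.5, 20.4 and 15.4 CPM in TM siATF4-3, against 3.87, 4.22, 5.08 and 4.45 CPM in TM siCtrl and 18.3, 19.1, 21.9 and 19.2 CPM in DMSO siCtrl. TM siATF4-2 lay below the solvent libraries and TM siATF4-3 overlapped them. PDSS1 had 5.78, 6.96, 6.56 and 6.10 CPM in TM siPERK-1, 6.60, 4.77, 6.13 and 7.76 CPM in TM siPERK-3 and 3.84, 6.71, 5.92 and 5.98 CPM in TM PERKi siCtrl. The PERK siRNA changes against TM siCtrl were small, 0.53 ± 0.16 and 0.53 ± 0.16 (adjusted p = 0.00956 and 0.0122), and the call for TM siPERK-3 was lost without its replicate 4 (adjusted p = 0.0810). Of its exon bases, 202 (12.5%) overlap ABI1 on the other strand, and ABI1 moved the other way with the ATF4 siRNAs, at 44.4 ± 4.19 and 43.0 ± 1.51 CPM against 55.2 ± 1.23 CPM in TM siCtrl.

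Between the ATF4 siRNAs, the 8 genes were mostly lower in TM siATF4-2, and since all these libraries chose the genes, the differences are a description. The log2 changes against TM siATF4-3 ran between -0.57 and 0.12, with a median of -0.26, against 0.01 over all genes. By edgeR, 4 of the 8 had an unadjusted p under 0.05. TM siATF4-2 lay below TM siATF4-3 for KLHL1 (log2 -0.44, 95% interval -0.70 to -0.18) and TMEFF2 (-0.57, -1.01 to -0.13), with no overlap of libraries. KLHL1 was the 1 of the 8 called, where 14.7% of all genes were, and that call was lost without TM siATF4-2 replicate 1 or 4 or TM siATF4-3 replicate 3. Over all genes, 7.25% had every TM siATF4-2 library below every TM siATF4-3 library. ATF4 itself was higher in TM siATF4-2 than in TM siATF4-3 (log2 1.06).

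With the ATF4 siRNAs against TM siCtrl, the tested relatives of the 8 genes had log2 changes below 1. Of 17 relatives from the same gene families, 12 were tested, and 5 rose and 1 fell in TM siATF4-2 against TM siCtrl, while 5 rose and 2 fell in TM siATF4-3. Of all genes, 28.4% rose and 27.2% fell in TM siATF4-2, and 31.2% rose and 30.7% fell in TM siATF4-3, shares that also stand behind the lists that follow. The median log2 changes of the 12 tested relatives were 0.25 and 0.23. On that scale, the plakophilin PKP3 rose by 0.75 ± 0.073 and 0.83 ± 0.073, and PKP4 by 0.51 ± 0.053 and 0.58 ± 0.054, whereas PKP2 did not pass (-0.12 and 0.17). PDSS2, the other subunit of the PDSS1 enzyme, rose by 0.37 ± 0.072 and 0.31 ± 0.073, and BMP1, the relative of TLL1, by 0.32 ± 0.11 and 0.54 ± 0.11. ZNF385A rose by 0.33 ± 0.085 and 0.30 ± 0.085.

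JAKMIP3 moved the other way from JAKMIP1, at 14.2 ± 2.19 CPM in TM siATF4-2 and 11.8 ± 1.87 CPM in TM siATF4-3, against 19.9 ± 1.70 CPM in TM siCtrl, and it had risen with tunicamycin (0.82 ± 0.10). SEMA6C fell in TM siATF4-3 (-0.64 ± 0.25) and did not pass in TM siATF4-2 (-0.48 ± 0.24). KLHL5 (-0.13 and -0.19), TLL2 (0.51 and 0.56), JAKMIP2 (-0.66 and -0.63) and ZNF385C (0.18 and -0.35) did not pass with either siRNA. TMEFF1, KLHL4, SEMA6B, SEMA6D and ZNF385D had too few counts to be tested.

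**Figure D4:**
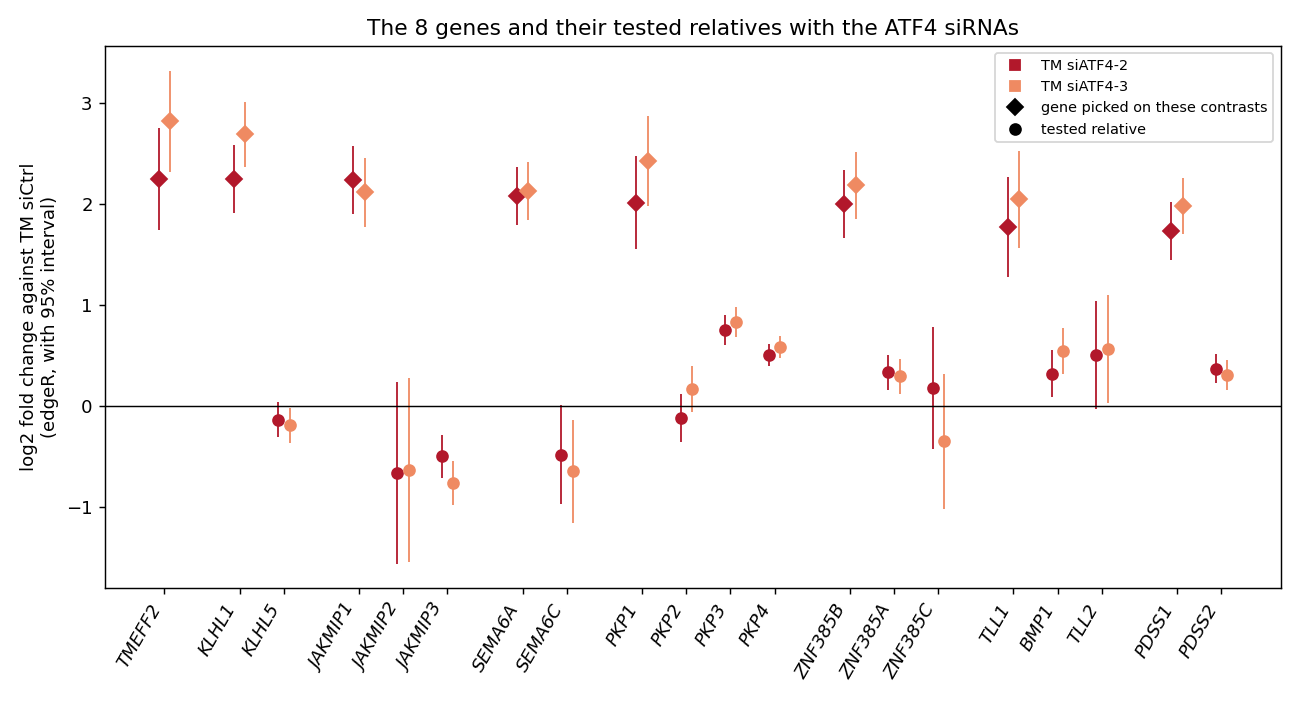
Log2 fold change with its 95% interval from the edgeR fit for the 8 genes (diamonds, picked on these contrasts) and their 12 tested relatives (circles) in TM siATF4-2 and TM siATF4-3 against TM siCtrl. The point estimates of the relatives lie below 1, and JAKMIP3 lies below 0 while JAKMIP1 lies above 2.

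PKP1 belongs to the desmosome, the junction that anchors keratin filaments. Of 11 other genes tested, 6 rose and 1 fell in TM siATF4-2 against TM siCtrl and 9 rose and 1 fell in TM siATF4-3, with median log2 changes of 0.31 and 0.58. On the log2 scale, the desmocollin DSC2 rose by 0.70 ± 0.056 and 1.39 ± 0.056, and DSC3 by 0.73 ± 0.095 and 0.93 ± 0.095. Both are cadherins of the desmosome. With the PERK siRNAs, 2 and 4 of the 11 rose (TM siPERK-1 and TM siPERK-3), where 13.1% of all genes did with either. Among them was DSC2 (0.23 ± 0.056 and 0.27 ± 0.056). With the inhibitor 5 fell, among them DSC3 (-0.40 ± 0.10), where 17.5% of all genes fell.

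Around PDSS1, the 12 other genes of coenzyme Q synthesis were divided, with 5 higher and 4 lower in TM siATF4-2 and 4 higher and 6 lower in TM siATF4-3. Of all genes, 28.4% and 31.2% were higher and 27.2% and 30.7% lower. ADCK3, an atypical kinase of the pathway, rose by log2 0.35 ± 0.067 and 0.53 ± 0.067, and the methyltransferase COQ5 fell in TM siATF4-3 (-0.41 ± 0.063). Tunicamycin lowered ADCK3 (-1.37 ± 0.065) and the methyltransferase COQ3 (-0.68 ± 0.075). ADCK3 thus shared the direction of PDSS1 in these comparisons, at a smaller size with the ATF4 siRNAs.

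Around SEMA6A, the plexins PLXNA2, PLXNA3 and PLXNA4, of its receptor class, fell with the ATF4 siRNAs. PLXNA2 averaged 0.513 ± 0.271 and 0.403 ± 0.109 CPM with the ATF4 siRNAs, against 2.49 ± 0.430 CPM in TM siCtrl, where it stood 3.59 ± 0.31 log2 above DMSO siCtrl. PLXNA3 averaged 35.1 ± 3.21 and 34.7 ± 3.79 CPM, against 51.5 ± 4.39 CPM in TM siCtrl. PLXNA4 averaged 0.256 ± 0.259 CPM in TM siATF4-2 and had 0 counts in every TM siATF4-3 library, against 1.95 ± 0.581 CPM in TM siCtrl. In this list of 8 other genes, 2 rose and 5 fell in TM siATF4-2, and 2 rose and 4 fell in TM siATF4-3.

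Around TLL1, 3 of 9 other tested genes of tolloid proteases and their substrates rose and 2 fell with either ATF4 siRNA, a share higher that is near that of all genes (28.4% and 31.2%). GDF11, a ligand whose propeptide tolloid proteases cleave, rose by log2 1.03 ± 0.087 and 1.45 ± 0.085, and CHRD, which encodes chordin, fell (-1.77 ± 0.36 and -1.48 ± 0.35). GDF11 also rose with the PERK siRNAs (0.73 ± 0.088 and 0.59 ± 0.091). LOX, a collagen cross-linking enzyme, rose in TM siPERK-1 (1.21 ± 0.20), in TM siPERK-3 (0.95 ± 0.22) and in TM PERKi siCtrl (1.13 ± 0.21).

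Known targets of ATF4 were set beside the 8 genes, whose own rise with the ATF4 siRNAs was fixed by their choice. Of 32 tested, 31 rose and 1 fell with tunicamycin, where 34.3% and 34.7% of all genes did, and 29 fell in TM siATF4-2 and 31 in TM siATF4-3, with 1 higher in each. In the PERK siRNA groups, 13 and 12 fell and 0 rose, where 13.3% and 13.7% of all genes fell. With the inhibitor 18 rose and 2 fell, where 18.2% and 17.5% of all genes did, and none of the 8 genes was called. CHAC1, which degrades glutathione, averaged 10.01 ± 7.32 and 2.29 ± 1.35 CPM with the ATF4 siRNAs, against 131 ± 15.3 CPM in TM siCtrl. DDIT3, which encodes CHOP, averaged 732 ± 39.9 CPM in TM PERKi siCtrl, against 295 ± 36.0 CPM in TM siCtrl.

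Since TMEFF2 is regulated by androgen, 24 androgen-regulated genes were set beside it. With tunicamycin 20 fell and 3 rose, where 34.7% and 34.3% of all genes did. In TM siATF4-3 against TM siCtrl 14 rose and 4 fell, with a median log2 change of 0.36, and 9 rose and 5 fell in TM siATF4-2, with a median of 0.10. Of all genes, 31.2% rose in TM siATF4-3 and 28.4% in TM siATF4-2. KLK2 averaged 162 ± 17.2 CPM in TM siATF4-3, against 75.4 ± 9.56 CPM in TM siCtrl, and KLK3, which encodes PSA, 844 ± 66.4 CPM against 431 ± 44.2 CPM. Against DMSO siCtrl, 22 of the 24 were called lower in TM siATF4-2 and 18 in TM siATF4-3, where 30% and 29.3% of all genes were. With the inhibitor 16 fell and 2 rose against TM siCtrl, where 17.5% and 18.2% of all genes did. TMEFF2 did not pass in that comparison. Against TM siCtrl, 4 of the 24 rose and 2 fell in TM siPERK-1, with a median log2 change of 0.07. In TM siPERK-3, 1 rose and 3 fell, with a median of -0.05. Of all genes, 13.1% rose with either PERK siRNA, and 13.3% and 13.7% fell. ACPP, prostatic acid phosphatase, rose in both PERK siRNA groups (2.09 ± 0.29 and 1.76 ± 0.30).

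Over 28 libraries, the 28 pairs of genes had Pearson correlations of log2 CPM between 0.65 and 0.95 (median 0.84), a description in which the pairs share libraries and the choice of the genes. After subtraction of each group's mean, they ran between -0.15 and 0.82 (median 0.33). The other genes most like their mean standardised profile, by Pearson's r over the 28 libraries, were ATIC (0.99), DHODH (0.98), CCDC86 (0.98), SLC39A8 (0.98), NCL (0.98) and FAM216A (0.98). ATIC averaged 248 and 264 CPM in TM siATF4-2 and TM siATF4-3, against 153 CPM in TM siCtrl and 233 CPM in DMSO siCtrl.

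The summed level of neuroendocrine markers had a similar order over the groups, largely through the marker SYT4. Summed over 11 such markers, TM siATF4-2 libraries held between 189 and 226 CPM and TM siATF4-3 libraries between 298 and 367 CPM. The range was 175 to 243 CPM for TM siPERK-1 and 182 to 235 CPM for TM siPERK-3. It was 108 to 152 CPM for TM PERKi siCtrl, 99.8 to 149 CPM for TM siCtrl and 349 to 415 CPM for DMSO siCtrl. SYT4, a synaptotagmin, had the highest mean of these markers in both ATF4 siRNA groups and in TM siCtrl, and averaged 166 ± 18.4 and 287 ± 31.7 CPM with the ATF4 siRNAs, against 59.3 ± 16.02 CPM in TM siCtrl. In DMSO siCtrl it averaged 327 CPM. Of 5 markers tested, 1 was called higher and 1 lower in TM siATF4-2 against TM siCtrl, and 1 higher and 2 lower in TM siATF4-3. Of all genes, 28.4% and 31.2% were called higher and 27.2% and 30.7% lower. The defining marker CHGA was at 0 to 3 counts per library, and the neuronal tubulin TUBB3 fell with the ATF4 siRNAs (-0.83 and -1.15). The sum of 9 fibroblast and mesenchymal markers was 26.9 to 63.3 CPM and that of 6 leukocyte markers 4.42 to 8.42 CPM in the 28 libraries. Their part in the levels of the 8 genes was not tested.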

How the data were processed

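The deposited values were raw counts per gene in 6 tables, made by the authors. The submitters' processing notes name TopHat2 2.1.0, featureCounts 1.5.0-p1, DESeq2 1.10.1 and hg19; the sources used here state neither settings nor annotation. The kit was strand-specific per the labels' protocols, but no source says if reads were assigned by strand, so overlapping genes are uncertain. The TM siCtrl columns stand in all 6 tables, where 0 of their values differ, and entered the fit a single time; 1 unnamed line, with 0 counts, was dropped.

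Counts of 28 libraries entered 1 group-means fit with TMM scaling (edgeR 4.0.16, R 4.3.3, filterByExpr with minimum count 10 and total 15, robust quasi-likelihood F-test, two-sided). Adjusted p-values (Benjamini-Hochberg) cover 14314 genes in each of 15 comparisons, 2 of them added after the data were seen. Errors of log2 changes are approximate SE and of levels SD. Promoter windows came from RefSeq. The fit was tested on simulated data. Alternatives were median-ratio and upper-quartile scaling, no filter, DESeq2 1.42.0, limma-voom (limma 3.58.1), a fit of the compared groups alone, a replicate block and leaving out each library.

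The 8 genes and all gene lists were chosen with earlier results of these data known. All 8 genes, their tested relatives, the targeted genes, the genes next in the ranking, the 6 most alike, and up to 4 called genes per list and comparison could be named.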

Additional observations from a re-analysis of the deposited data

Results flagged for a closer look

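In 56 sets of 4 libraries (8 genes in 7 groups), 2 held a library that stood apart from the other 3 by Dixon's test at the 95% level, where chance gives about 5% of sets. KLHL1 in DMSO siCtrl had 30.1 CPM in replicate 4, against 19.6, 20.1 and 21.0 CPM in the other replicates. SEMA6A in TM siATF4-2 had 48.4 CPM in replicate 4, against 65.6, 67.5 and 69.0 CPM in the others.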

How the results depend on the processing

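No single-gene change of the 8 that was called turned its direction under any alternative run, in the 13 comparisons where single genes were followed. The ATF4 siRNA groups against DMSO siCtrl were rerun too, but their single-gene changes were not followed. The count of the 8 called in TM PERKi siCtrl against TM siCtrl went to 1 with the replicate block (PDSS1, 0.36, adjusted p = 0.0480) and was 0 to 1 when single libraries were left out. Between TM siPERK-1 and TM siPERK-3 it was 0 with upper-quartile scaling and with no filter, 2 with DESeq2 and with the compared groups alone, and 0 to 1 without single libraries. Between TM siATF4-2 and TM siATF4-3 it was 2 (TMEFF2 added) with the replicate block, limma-voom and the compared groups alone, and 0 to 1 without single libraries. Over all genes, TM siPERK-1 against TM siPERK-3 had 677 calls, 1195 with the replicate block and 392 to 627 without single libraries. The causes of these shifts were not tested, beyond the smaller number of libraries where one was left out. The median log2 change of all genes stayed between -0.04 and 0.03 under every scaling. The scaling itself holds this median near 0, so it cannot show whether RNA levels shifted in general.

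The groups share replicate numbers 1 to 4. Same-numbered libraries correlated by 0.02 to 0.30 after group means were removed. This was over 0.1 in 24 of 60 pairs, and in every pair of 0 comparisons, so the numbers were not taken to pair the samples. Yet 28 of 28 libraries correlated best with libraries of their own number, and whether a number marks a shared experiment was not tested. The main fit leaves the number out, and the replicate block changed some calls. It added PDSS1 in TM PERKi siCtrl against TM siCtrl (adjusted p = 0.0480) and TLL1 in TM siPERK-1 against TM siCtrl (0.00841). It also added TMEFF2 in TM siATF4-2 against TM siATF4-3 (0.00975). The block also ended the call of SEMA6A in TM siPERK-1 against DMSO siCtrl (adjusted p = 0.0525). Intervals cover the spread between these libraries, and totals of 10794637 to 17253801 counts limit what low genes such as PKP1 can show.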
